A study of Mus musculus with 2 samples.

Results

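The constant region genes of the T cell receptor were followed through the leukocytes of the mouse adrenal gland. They were taken by name and were Trac, Trbc1, Trbc2, Trdc, Tcrg-C1, Tcrg-C2 and Tcrg-C4, 7 of the 32285 genes counted. All 7 had UMIs (unique molecular identifiers, each standing for 1 captured transcript) in both libraries. Levels are given as CPM, counts per 1e+06 UMIs of a cell class.

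The study compared adrenal immune cells of the sexes, with its main interest in macrophages. Live CD45+ cells, CD45 being the surface protein shared by leukocytes, were sorted from adrenal glands of C57BL/6 J mice aged 7 weeks, freed of surrounding fat, and no treatment or transgene was given in the labels. There was 1 single-cell library of female mice and 1 of male mice, and the number of animals behind each was not stated in the sources used here. Sex and library therefore cannot be told apart, cells of 1 library are not replicates, and every interval below is an exact 95% interval that covers counting error only.

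T cells recognise antigen through a receptor made either of an alpha and a beta chain or of a gamma and a delta chain, each with a rearranged variable part joined to a constant part. The beta locus carries a pair of nearly identical constant genes, and the mouse gamma locus carries several, each with its own nearby segments. The receptor reaches the surface only together with the CD3 chains, and natural killer (NK) cells and innate lymphoid cells (ILCs), which lack it, are known to carry transcripts of unrearranged receptor loci.

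After filtering, 3694 female and 2449 male cells remained, with medians of 3489.5 and 3008 UMIs, and 2 cell barcodes occurred in both libraries. Clusters were named from marker lists as T-like, NK-like, ILC-like, B-like and myeloid, and are called T cells, NK cells and so on below. The female and male libraries held 690 and 373 T cells, 867 and 371 NK cells, 95 and 70 ILCs, 516 and 268 B cells and 1271 and 1047 myeloid cells. T cells were split by UMIs into CD8 T cells (Cd8b1; 193 and 103), CD4 T cells (Cd4 or Cd40lg; 181 and 94), cells with both kinds (7 and 5) and other T cells with neither (309 and 171). A split by Cd8a and by Cd4 alone, which gave 83 and 42 CD4, 161 and 89 CD8 and 446 and 242 other T cells, was the alternative. CD4 T cells of the first split include cells with Cd40lg and no Cd4 UMI. With Cd8b1 kept and Cd4 alone, 80 and 41 of them remained. The summed level of the 7 T cell markers was 3290 and 3310 CPM in T cells, 471 and 497 CPM in NK cells and 1160 and 1145 CPM in ILCs. CD3 transcripts (Cd3d, Cd3e or Cd3g) were found in 28.4% and 28.3% of NK cells and in 36.8% and 41.4% of ILCs, so NK and ILC values are also given for cells without a CD3 UMI (621 and 266 NK cells, 60 and 41 ILCs).

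The genes differ in how well their reads can be told apart. In GENCODE vM21 on GRCm38, Trac lies at chr14:54220521-54224206 and Trdc at chr14:54142851-54148868, both on the plus strand, and Trdc has 3407 transcript bases after its coding part. Trdc overlaps the antisense gene Gm43434 and the variable gene Trdv5, which lie on the other strand and were also counted. Trbc1 (chr6:41538218-41539881) and Trbc2 (chr6:41546730-41548352), both on the plus strand, share 95.6% of their 518 coding bases. Exon 1 of the pair differs at 1 of 375 bases, and exon 3, which encodes the membrane-spanning part, is printed because it holds most of the differences (15 of its 107 bases, in capitals).
Trbc1 exon 3, chr6:41539229-41539335, plus strand: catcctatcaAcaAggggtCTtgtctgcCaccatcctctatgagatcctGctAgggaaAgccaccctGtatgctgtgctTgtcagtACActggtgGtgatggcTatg
Trbc2 exon 3, chr6:41547772-41547878, plus strand: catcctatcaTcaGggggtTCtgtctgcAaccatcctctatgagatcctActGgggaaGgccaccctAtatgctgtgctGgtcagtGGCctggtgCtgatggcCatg
Of the 55-base windows of the Trbc1 transcript, the length of a cDNA read here, 40.0% also occur in Trbc2, but 0 of 246 in its last 300 bases, where the counting chemistry reads.

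The gamma genes stand at chr13:19214103-19217024 (Tcrg-C1, plus strand), chr13:19304649-19307551 (Tcrg-C2, minus strand) and chr13:19344558-19352756 (Tcrg-C4, plus strand). Tcrg-C1 and Tcrg-C2 are 94.6% identical over their coding bases, whereas Tcrg-C1 and Tcrg-C4 share 72.2%. The first 120 coding bases are printed for the 3 genes to show this pattern, with capitals at the 15 positions where they are not all alike.
Tcrg-C1, chr13:19214103-19214222, plus strand: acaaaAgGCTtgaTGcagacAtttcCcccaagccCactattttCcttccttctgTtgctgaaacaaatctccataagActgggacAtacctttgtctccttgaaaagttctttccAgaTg
Tcrg-C2, chr13:19307432-19307551, minus strand: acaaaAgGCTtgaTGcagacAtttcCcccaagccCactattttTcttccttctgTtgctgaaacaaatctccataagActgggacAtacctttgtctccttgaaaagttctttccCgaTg
Tcrg-C4, chr13:19344558-19344677, plus strand: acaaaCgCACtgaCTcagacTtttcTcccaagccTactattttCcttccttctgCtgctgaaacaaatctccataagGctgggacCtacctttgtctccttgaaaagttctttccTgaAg
Of the windows in the last 300 bases of Tcrg-C1, 20.3% also occur in Tcrg-C2, so reads of that pair could be shared. In ILCs without CD3, 97 and 76 UMIs of Tcrg-C1 stood beside 0 and 2 of Tcrg-C2, so little Tcrg-C1 was counted as Tcrg-C2. No 55-base window of Tcrg-C4 is shared with either. The related Tcrg-C3, not among the 7, had 1 UMI in all cells.

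Trac, the constant gene of the alpha chain, was a T cell transcript. It reached 727 and 825 CPM in CD4 T cells, 630 and 594 CPM in other T cells and 560 and 562 CPM in CD8 T cells of the female and male library. ILCs followed with 185 and 158 CPM, then NK cells with 50.6 and 31.2 CPM. This order was the same in both libraries, but the intervals of other and CD8 T cells overlapped, and with the alternative split female other T cells (665 CPM) stood above CD4 T cells (632 CPM). In NK cells without a CD3 UMI Trac was at 20.9 and 14.1 CPM, and in ILCs without one at 10.7 and 8.84 CPM (2 and 1 UMIs). Most of the Trac of ILCs therefore lay in cells that also carried CD3. B and myeloid cells, which should lack the gene, had between 0 and 8.17 CPM.

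**Figure D1:**
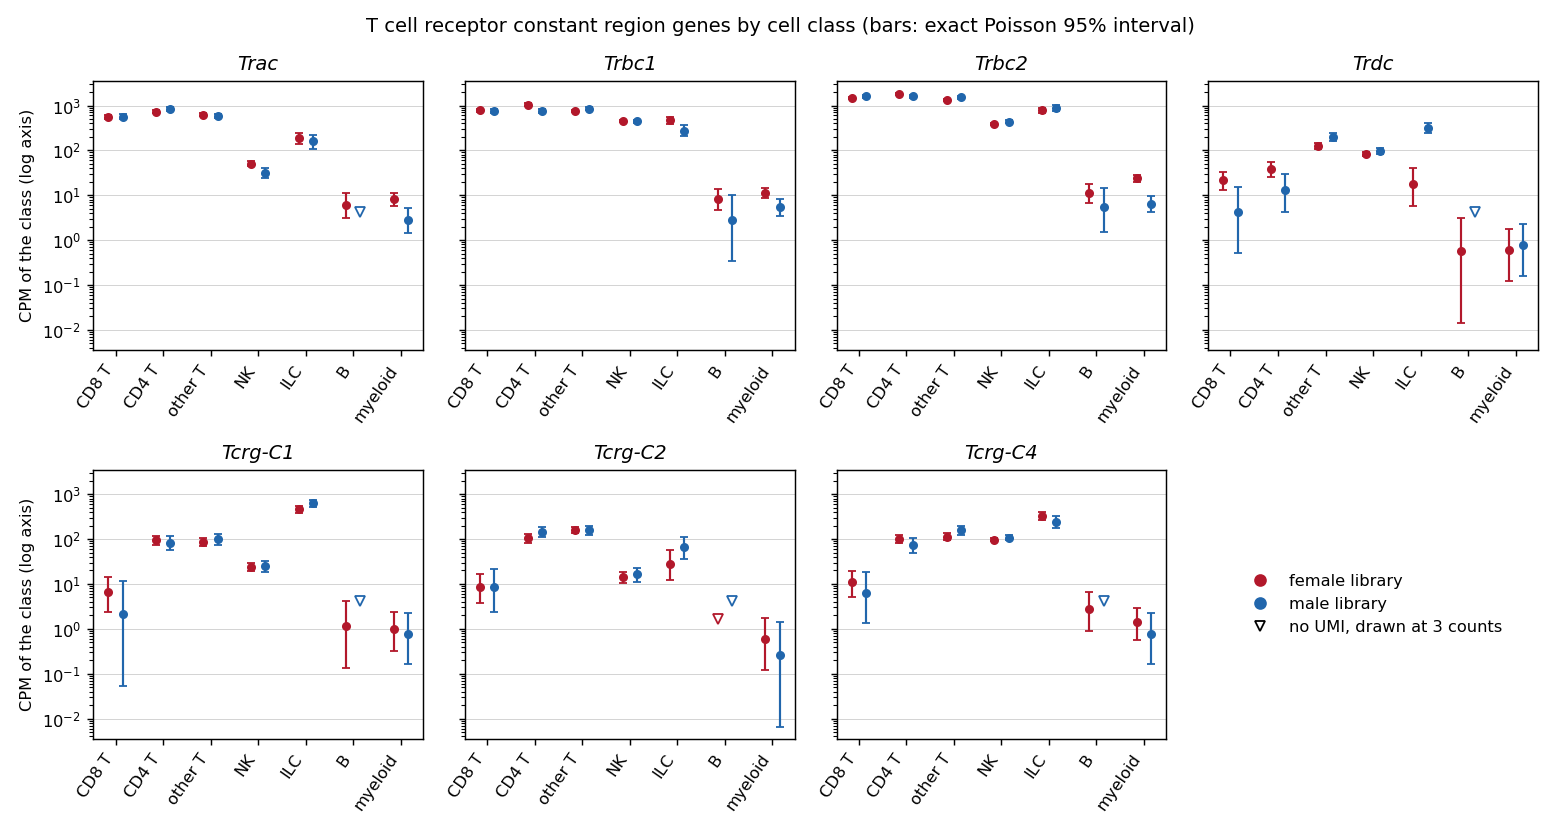
Levels of the 7 constant region genes in 7 cell classes, in CPM on a log axis, with 1 point per library and exact Poisson 95% intervals; open triangles mark classes with no UMI, drawn at 3 counts. Trac separates T cells from all others, Trbc1 and Trbc2 are also high in NK cells and ILCs, and Tcrg-C1 peaks in ILCs at 459 and 629 CPM.

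The beta chain genes were not restricted to T cells. Trbc1 stood at 1045 and 761 CPM in CD4, 778 and 750 CPM in CD8 and 757 and 858 CPM in other T cells, and still at 444 and 445 CPM in NK cells and 466 and 276 CPM in ILCs. The order of the 3 T cell subsets differed between the libraries. The NK to T cell ratio of Trbc1 was 0.518 (0.487 to 0.55) in the female and 0.562 (0.514 to 0.614) in the male library. Trbc2 reached 1783 and 1622 CPM in CD4, 1473 and 1606 CPM in CD8 and 1328 and 1532 CPM in other T cells. It fell to 783 and 884 CPM in ILCs and 389 and 437 CPM in NK cells, and its NK to T cell ratio was 0.259 (0.244 to 0.274) and 0.279 (0.257 to 0.302). NK cells thus kept a larger part of the T cell level of Trbc1 than of Trbc2. Leaving out NK cells with a CD3 UMI lowered their levels to 407 and 420 CPM for Trbc1 and to 304 and 361 CPM for Trbc2. ILCs without CD3 had 363 and 150.3 CPM of Trbc1 (68 and 17 UMIs) and 629 and 707 CPM of Trbc2. B and myeloid cells had 2.77 to 11.4 CPM of Trbc1 and 5.54 to 24.1 CPM of Trbc2.

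Trdc, the only delta chain constant gene, was as high in NK cells as in all T cells pooled. T cells had 67.5 and 81.8 CPM and NK cells 81.8 and 96.6 CPM, and the NK to T cell ratio was 1.21 (1.01 to 1.45) and 1.18 (0.933 to 1.5). NK cells without a CD3 UMI had 69.3 and 69.8 CPM, which in the male library lay below the T cell level. Of NK cells with at least 3 Trdc UMIs, 73.1% (19 of 26) and 60.0% (9 of 15) also had a CD3 UMI. Within T cells the gene lay mostly in other T cells, at 127 and 200.4 CPM, against 38.2 and 12.9 CPM in CD4 and 21.7 and 4.27 CPM in CD8 T cells. The UMIs were spread differently over cells. Of 210 and 95 NK cells with Trdc, 70.0% and 56.8% held a single UMI, whereas among 40 and 22 T cells with Trdc this was 27.5% and 13.6%, with medians of 3 and 5 UMIs. In B and myeloid cells Trdc was at 0 to 0.779 CPM.

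Trdc in ILCs differed between the libraries, with 17.8 CPM in the female and 322 CPM in the male one. The 63 male UMIs came from 5 of 70 cells, with 3 to 27 UMIs each. Each of these 5 cells had CD3 UMIs (8 to 17) and Tcrg-C1 (2 to 13), and none had Trac. Of the list of 11 genes known from gamma delta T cells that make interleukin 17, they held 20 UMIs of Cd163l1, 16 of Blk and 21 of Maf, but 2 of Sox13, 1 each of Il17a and Il23r and 0 of Il17f, Il1r1, Ccr6 and 5830411N06Rik. A single cell held 13, 12 and 15 of the UMIs of Cd163l1, Blk and Maf, and another had neither Cd163l1 nor Blk. The other 65 male ILCs had 0 UMIs of Cd163l1, 8 of Blk and 48 of Maf. Il1rl1 and Gata3, which define ILCs of type 2, were at 0 in the 5 cells and had 96 and 121 UMIs in the other 65, so these 5 cells went against their label. Without ILCs carrying CD3, Trdc in ILCs was at 10.7 CPM (2 UMIs) in the female and 0 in the male library, which at 3 counts allows up to 26.5 CPM.

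The 3 gamma chain genes each had a pattern of their own. Tcrg-C1 was highest in ILCs, at 459 and 629 CPM, against 93.8 and 82.5 CPM in CD4, 87.9 and 100.2 CPM in other and 6.5 and 2.14 CPM in CD8 T cells. The ILC to T cell ratio was 7.28 (5.77 to 9.17) and 10.2 (7.70 to 13.6). NK cells had 24.2 and 25.1 CPM, and without CD3 15.9 and 10.4 CPM (44 and 14 UMIs). In ILCs without CD3 the level of Tcrg-C1 was 517 and 672 CPM, no lower than with them.

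Tcrg-C2 reached its highest levels in other T cells, at 158 and 157 CPM, and in CD4 T cells, at 104 and 147 CPM. In male other T cells Tcrg-C4 was also at 157 CPM, and in female CD4 T cells it was only slightly lower than Tcrg-C2, at 101 CPM. CD8 T cells had 8.67 and 8.54 CPM of Tcrg-C2, so its CD4 to CD8 ratio was 12.0 (5.80 to 28.6) and 17.2 (6.36 to 65.3). This rested on the markers of the split, since with Cd8a and Cd4 alone it was 1.18 (0.492 to 2.63) and 1.91 (0.560 to 6.01). ILCs had 28.5 and 66.4 CPM and NK cells 14.2 and 16.4 CPM of Tcrg-C2. In cells without CD3 UMIs it was at 0.722 and 2.23 CPM (2 and 3 UMIs) in NK cells and at 0 and 17.7 CPM (0 and 2 UMIs) in ILCs. B cells had none and myeloid cells 0.598 and 0.260 CPM, so the male ILCs stood above that background on 2 UMIs.

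Tcrg-C4 was found in all 3 lymphoid lineages. It stood at 334 and 240 CPM in ILCs, 113 and 157 CPM in other T, 101 and 72.2 CPM in CD4 T and 98.0 and 108 CPM in NK cells, but at 10.8 and 6.41 CPM in CD8 T cells. Among NK cells it was nearly restricted to the cluster led by Gzmc, Xcl1 and Itga1, with 144 and 169 CPM against 3.00 and 2.78 CPM in the cluster led by Prf1, Klra4 and Eomes, in which haemoglobin genes were also among the leading genes. Trdc did not follow this division, with 80.4 and 80.9 CPM in the former and 84.8 and 124 CPM in the latter. The CD3 chains did, with 480 and 543 CPM against 73.5 and 95.9 CPM, but Tcrg-C4 in NK cells without CD3 was still 92.8 and 112 CPM. In ILCs without CD3 it was 405 and 345 CPM.

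The other gamma and delta values of CD4 and CD8 T cells also moved with the split. With Cd8a and Cd4 alone, CD4 T cells had 84.5 and 26.6 CPM of Tcrg-C1, 29.1 and 39.9 CPM of Tcrg-C2 and 58.3 and 39.9 CPM of Tcrg-C4. CD8 T cells then had 29.7 and 4.63 CPM of Tcrg-C1, 24.8 and 20.9 CPM of Tcrg-C2 and 22.3 and 11.6 CPM of Tcrg-C4. Trdc was then lower in female CD4 T cells (11.7 CPM) than in female CD8 T cells (47.1 CPM), the reverse of the order above. Other T cells stayed highest for Tcrg-C2 and Tcrg-C4 among the T cell subsets, at 140 and 156 CPM and 105 and 125 CPM. With Cd4 alone and Cd8b1 kept, the CD4 to CD8 ratio of Tcrg-C2 was 2.61 (0.995 to 6.78) and 5.08 (1.21 to 24.5), and with Cd8a alone changed it was 4.94 (2.87 to 9.04) and 8.23 (3.74 to 21.4). CD4 T cells by Cd4 alone and Cd8b1 held 10 and 6 UMIs of Tcrg-C2, against 84 and 57 when Cd40lg was also used.

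Among T cells, the gamma genes divided the same way by cluster. The cluster led by Cd3e, Cd40lg and Cxcr6 (423 and 240 cells) had 144 and 147 CPM of Tcrg-C2 and 117 and 116 CPM of Tcrg-C4. The cluster led by Dapl1, Cd8b1, Lef1 and Ccr7 (265 and 131 cells), genes of naive and CD8 T cells, had 4.90 and 10.9 CPM of Tcrg-C2 and 0.980 and 10.9 CPM of Tcrg-C4. Receptor segment genes were kept out of the clustering, so these values did not draw the clusters.

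Shares of cells with a UMI were compared after drawing 1000 UMIs from each cell, since depth differed between classes (medians of 3855.5 and 3655 UMIs in T, 4154 and 4859 in NK, 2336 and 2520.5 in ILCs, 2206 and 1761.5 in B and 3387 and 2917 in myeloid cells). The draw left out 17 and 11 T cells, 7 and 3 NK cells, 4 and 4 ILCs, 17 and 15 B cells and 74 and 61 myeloid cells of lower depth. At that depth 90.8% (88.3 to 92.9) of female and 92.5% (89.3 to 95.03) of male T cells had an alpha or beta UMI, and 17.5% (14.7 to 20.6) and 19.3% (15.4 to 23.8) a gamma or delta UMI. With all UMIs these shares were 98.1% and 98.7%, and 30.3% and 28.2%. A marker gate instead (at least 2 CD3 UMIs and none of 6 markers, Klrb1c among them) took 357 and 190 cells as T cells. Their gamma delta share at equal depth was 9.04% and 15.3%. Klrb1c was higher in alpha beta T cells with a gamma UMI (ratios of 2.29 and 2.26), and its part in the lower share was not tested. The gamma delta share was 2.07% and 1.94% in CD8, 17.7% and 22.3% in CD4 and 27.7% and 29.4% in other T cells at equal depth, and 7.25% and 3.88%, 34.8% and 34.0%, and 42.4% and 40.4% with all UMIs. With Cd8a and Cd4 alone as markers it was 8.07% and 2.27% in CD8, 6.02% and 9.52% in CD4 and 23.3% and 27.6% in other T cells at equal depth. In B and myeloid cells it was between 0 and 0.2% at equal depth, below the share in each T cell subset, although the intervals of CD8 T cells and B cells overlapped.

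NK cells and ILCs were clearly above that background too. Trbc1 or Trbc2 was found in 50.7% (47.3 to 54.1) and 52.2% (46.9 to 57.4) of NK cells at equal depth, against 0.791% to 2.51% of B and myeloid cells. With all UMIs, 84.0% and 88.1% of NK cells and 2.24% to 7.47% of B and myeloid cells had such a UMI. Trdc was found in 6.51% and 7.34% and Tcrg-C4 in 8.49% and 8.97% of NK cells at equal depth (24.2% and 25.6%, and 21.7% and 24.0%, with all UMIs). In ILCs 39.6% (29.5 to 50.4) and 47.0% (34.6 to 59.7) had a gamma or delta UMI at equal depth and 57.9% and 64.3% with all UMIs.

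**Figure D2:**
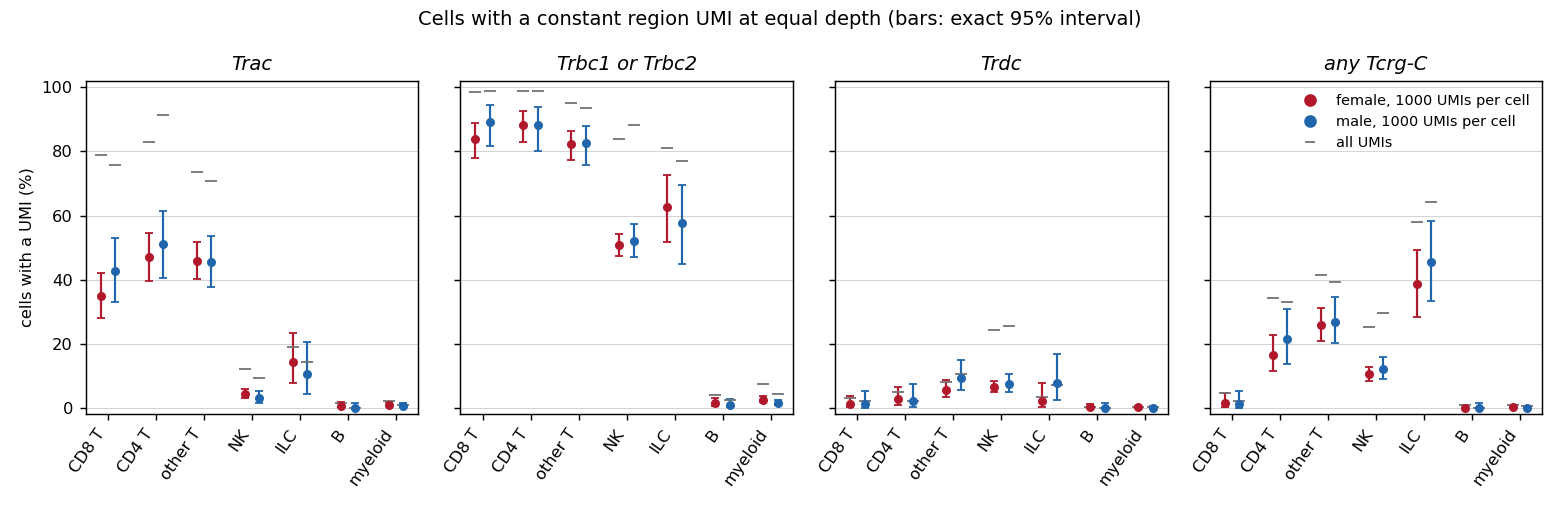
Percent of cells with at least 1 UMI of Trac, of either Trbc gene, of Trdc and of any Tcrg-C gene in 7 cell classes, per library, at 1000 UMIs per cell with exact 95% intervals; grey dashes give the share with all UMIs. At equal depth 50.7% and 52.2% of NK cells have a Trbc UMI, and B and myeloid cells stay below 3% in every panel.

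By the Cd8b1 split, gamma transcripts were common in alpha beta T cells outside the CD8 subset, delta transcripts were not. Among CD8 T cells with Trac and no Trdc, 7 of 148 female and 2 of 76 male cells had a gamma UMI. With Cd8a and Cd4 alone as markers, the gamma delta share at equal depth was 8.07% and 2.27% in CD8 and 6.02% and 9.52% in CD4 T cells. The female CD4 share was then no higher than the CD8 share, while other T cells had 23.3% and 27.6%. Counted with all UMIs, 470 female and 264 male T cells had alpha or beta UMIs alone, 207 and 104 had both kinds, 2 and 1 had gamma or delta alone and 11 and 4 had neither. The 2 and 1 cells are too few to describe. Trac was found in 35.0% (14 of 40; 20.6 to 51.7) and 31.8% (7 of 22; 13.9 to 54.9) of T cells with Trdc, against 80.3% (77.0 to 83.3) and 80.6% (76.1 to 84.6) of T cells without it. With at least 2 Trdc UMIs, Trac was found in 17.2% (5 of 29) and 21.1% (4 of 19). Among gated cells with Trdc it was found in 9.09% and 10.0%, shares of few cells. The gate left 9 and 9 cells with at least 2 Trdc UMIs and no Trac. Median depth was not lower in the cells with Trdc, at 4682 and 4329.5 UMIs against 3810.5 and 3545.

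No such separation was seen for the gamma genes. Trac was found in 80.0% (160 of 200; 73.8 to 85.3) and 79.0% (79 of 100; 69.7 to 86.5) of T cells with a Tcrg-C UMI, and in 76.7% and 77.3% of those without. Depth was not matched for these shares. Among T cells with Trac and no Trdc, medians were 4499 and 4396 UMIs with a gamma UMI and 3929 and 3699 without. A Tcrg-C UMI was found in 77.5% and 77.3% of T cells with Trdc, against 26.0% and 23.6% of those without. A Trbc UMI was found in 97.5% and 95.5% of T cells with Trdc, close to the 97.1% and 96.6% of those without, so beta transcripts did not separate the cells either.

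**Figure D3:**
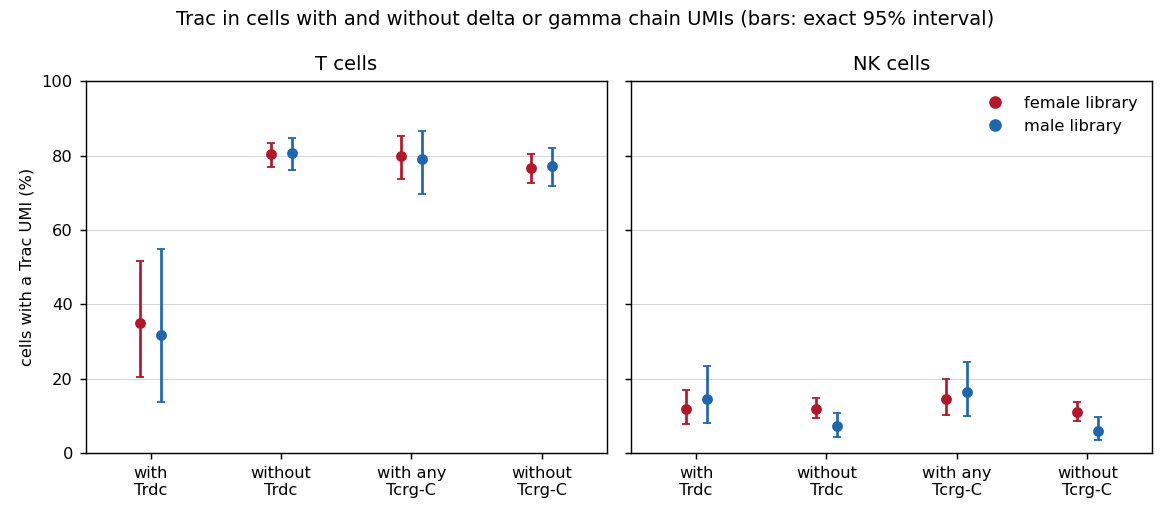
Percent of T cells (left) and NK cells (right) with a Trac UMI, among cells with and without Trdc and with and without any Tcrg-C UMI, per library, with exact 95% intervals. In T cells Trac is rarer where Trdc is found (35.0% and 31.8%), but not where a gamma gene is found (80.0% and 79.0%).

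In NK cells Trac was found in 11.9% and 14.7% of cells with Trdc and in 12.0% and 7.25% of cells without, and the intervals overlapped within each library. A Tcrg-C UMI was found in 18.1% and 25.3% of NK cells with Trdc and in 27.5% and 31.2% of those without.

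Several gamma genes were often found in the same T cell. Of 200 and 100 T cells with a gamma UMI, 34.5% and 44.0% had 2 of the 3 genes and 13.5% and 12.0% all 3. In NK cells 84.9% and 81.8% of gamma positive cells had 1 gene alone, mostly Tcrg-C4. Tcrg-C1 and Tcrg-C4 met in 19 of 55 and 12 of 45 gamma positive ILCs, Tcrg-C1 and Tcrg-C2 in 2 and 6.

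The beta gene of single cells was read from T cells with at least 5 Trbc UMIs, 506 and 254 cells. Trbc2 made up at least 90% of these UMIs in 206 and 101 cells (40.7% and 39.8%), Trbc1 in 30 and 6 cells (5.93% and 2.36%), and 270 and 147 cells (53.4% and 57.9%) held a mixture. The shares count captured 3′ ends, and whether both genes are captured equally well was not tested. NK cells with as many Trbc UMIs (289 and 149) were seldom one-sided, with 10.4% and 10.7% mostly Trbc2, 13.8% and 16.8% mostly Trbc1 and 75.8% and 72.5% mixed.

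**Figure D4:**
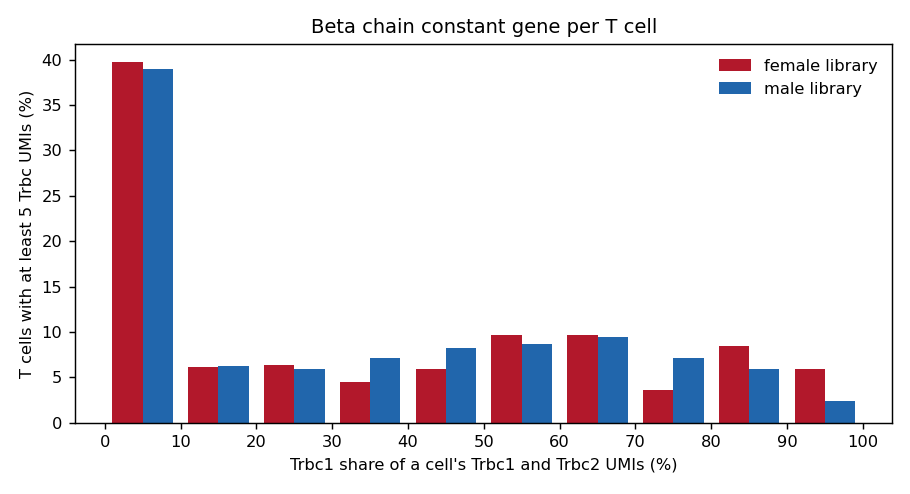
Share of Trbc1 in the Trbc1 and Trbc2 UMIs of each T cell, for cells with at least 5 such UMIs, as percent of the cells of a library in steps of 10 percentage points. The tallest bars are the lowest step (39.7% of female cells), and no matching peak stands at the highest step.

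Variable segment transcripts, a readout of the same loci that did not choose the genes, gave a further view of these loci. Trbv segments summed to 38.7 and 43.4 CPM in T cells but to 1.47 and 1.02 CPM (6 and 2 UMIs) in NK cells, a ratio of 0.0379 (0.0136 to 0.0850) and 0.0236 (0.00279 to 0.0889). The NK to T cell ratios of Trbc1 and Trbc2 given above were many times larger, so NK cells had constant region transcripts of the beta locus with hardly any UMI of its variable segments.

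At the delta locus it was the reverse. Trdv segments reached 68.4 and 66.0 CPM in NK cells, most of it from Trdv4 (36.6 and 41.9 CPM) and Trdv2-2 (31.8 and 23.0 CPM), against 4.80 and 11.9 CPM in T cells. In NK cells without CD3 the level was 69.7 and 60.2 CPM. A Trdv UMI was found in 24.8% and 28.4% of NK cells with Trdc and in 25.3% and 28.6% of those without. Among T cells it was 10.0% and 36.4% of those with Trdc, against 1.08% and 0.285% of those without.

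Gamma variable segments stood at 69.5 and 95.8 CPM in T and 15.6 and 30.7 CPM in NK cells. Most of the T cell level was Trgv2, with 50.01 and 72.7 CPM. Of 135 T cells with Trgv2 over both libraries, 101 (74.8%) also had Tcrg-C2, which was found in 17.2% and 17.2% of all T cells. The other gamma genes were also more frequent there, Tcrg-C4 in 72 cells (53.3%, against 16.4% and 14.5% of all T cells) and Tcrg-C1 in 61 (45.2%, against 13.2% and 13.4%). ILCs, with the highest Tcrg-C1, had 32.0 and 30.7 CPM of gamma variable segments (9 and 6 UMIs), and without CD3 10.7 and 26.5 CPM (2 and 3 UMIs).

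Among the partner genes of the receptor, Cd3d and Cd3e followed Trac closely. Cd3d, Cd3e and Cd3g, which carry the receptor to the surface, summed to 2639 and 2647 CPM in T cells, 800 and 879 CPM in ILCs and 348 and 379 CPM in NK cells. Cd3g was the most widely found of them in NK cells, in 203 and 92 cells, against 91 and 43 for Cd3d and 49 and 19 for Cd3e. Over 14 sums of 7 classes in 2 libraries, the genes most like Trac among 9679 compared were Cd3d (Pearson r = 0.993), Cd3e (0.992) and Cd6 (0.970), on log2(CPM + 10). For Tcrg-C1 they were Il2ra (0.975), Itgb3 (0.970) and Tnfrsf25 (0.957). For Trdc they were Dctn6 (0.933), Mrs2 (0.925) and Med12 (0.895), and its own r with Trac was 0.464. The 14 points share libraries and cells of related kinds, and r is given as a description.

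T cells of a delta type were then compared with alpha beta T cells across 3148 genes. The groups set out at first, gamma delta UMIs alone against alpha beta UMIs alone, held 2 and 1 cells on the small side, so they were replaced after the values were seen. Delta type cells had at least 2 Trdc UMIs and no Trac (24 and 15 cells, 111757 and 65847 UMIs in all), and the others had Trac and no Trdc (522 and 283 cells). A gene was called when its ratio was at least 2-fold the same way in both libraries, with at least 50 UMIs over both groups. This held for 0.826% of all genes as higher and 1.21% as lower, and receptor segment genes were left out. There is no replicate behind a call, and the smaller groups make single ratios uncertain.

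Genes of innate-like T cells were higher in delta type cells for 4 of 9 measured. Fcer1g, the signalling chain shared by Fc and NK receptors, stood at 635 against 197 CPM in the female and 850 against 168 CPM in the male library, ratios of 3.22 (2.47 to 4.14) and 5.07 (3.70 to 6.86). Il18r1, a receptor chain for interleukin 18, was 2.45-fold and 3.63-fold higher. The NK receptor genes Klrd1 (2.22 and 2.46) and Klrk1 (2.39 and 2.36) completed the 4. Median log2 ratios of the list were 1.09 and 0.84, against 0.05 and 0.10 over all genes tested. With at least 3 Trdc UMIs 2 of the list were called, and among gated T cells (9 and 9 of delta type) 1 was.

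The CD3 chains did not pass, 0 of 4, with Cd3d at 1172 against 1030 CPM and 972 against 978 CPM. Of 16 genes of receptor signalling, 3 were lower, and each rested on at most 4 UMIs per library in the delta type cells. Themis, needed for thymic selection of alpha beta T cells, had ratios of 0.240 (0.0492 to 0.709) and 0.497 (0.101 to 1.49). Cd6, a coreceptor that tunes signalling, had 0.380 and 0.432. Cd5, a brake on receptor signalling, was at 35.8 against 80.6 CPM in the female library and had no UMI in the male one, which at 3 counts makes it at least 1.75-fold lower there. With that bound in place of 0, Cd5 misses the 2-fold rule and 2 of the 16 were lower. Naive T cell genes were lower for 2 of 9, Ccr7 (0.240 and 0.328), which guides cells to lymph nodes, and Dapl1 (0.246 and 0.382). They rested on 3 and 2 UMIs of Ccr7 and 5 and 4 UMIs of Dapl1 in the delta type cells, and the male interval of Ccr7 (0.0393 to 1.22) includes 1. Neither was called among gated T cells.

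The granzyme gene Gzma was the only 1 of 5 measured cytotoxic genes called, with 80.5 against 198 CPM in the female library and no UMI against 122 CPM in the male one (at least 2.68-fold lower at 3 counts). Of 5 measured lineage factors none was called, Bcl11b being nearest with ratios of 0.558 and 0.470. Of the 11 genes of interleukin 17 producing gamma delta cells, Maf alone had enough UMIs (ratios of 0.435 and 0.609, not called). The recombination and pre-receptor genes Rag1, Rag2, Dntt and Ptcra had too few UMIs to be measured. Delta type cells lay in the Cd40lg and Cxcr6 cluster for 91.7% and 86.7%, the comparison cells for 62.1% and 68.9%, and the part of this in the ratios was not tested.

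A second contrast was made between alpha beta T cells with and without gamma transcripts. Among T cells with Trac and no Trdc, 152 and 76 had a Tcrg-C UMI and 370 and 207 had none, again groups chosen after the values were seen. Over 2974 genes, 0.706% were called higher and 1.08% lower. Naive T cell genes were lower for 6 of 9 measured. Ccr7 stood at 8.92 against 164 CPM and 20.3 against 123 CPM, ratios of 0.0544 (0.0216 to 0.114) and 0.165 (0.0648 to 0.353). Dapl1 was at 17.8 against 265 CPM in the female library, and had no UMI against 226 CPM in the male one, at least 26.0-fold lower at 3 counts. Klf2 (0.178 and 0.286), S1pr1 (0.238 and 0.144) and Lef1 (0.341 and 0.447), which keep naive cells in circulation or mark them, were also called lower, while Satb1 (0.727 and 1.03) and Il7r (0.818 and 0.699) were not called.

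Innate-like genes were called higher for 2 of 9, Klrb1c (2.29 and 2.26), which encodes the NK1.1 antigen, and Fcer1g (2.37 and 2.22). Il2rb (2.20 and 1.96) and Id2 (1.90 and 1.91) missed the 2-fold bound in at least 1 library. The count of 2 was 1 with doublet calls ignored and 4 under a mitochondrial ceiling of 5%. Among gated T cells it was 1, but the gate admits no cell with a Klrb1c UMI, so Klrb1c could not be called there. Ifng, the interferon gamma gene, was higher at 67.5 against 31.6 CPM and 113 against 24.6 CPM, and was the 1 gene called of 5 cytotoxic genes measured. Gzma was not called, with ratios of 0.896 and 0.0689. None of the 4 CD3 genes was called, 1 of 15 measured receptor signalling genes (Themis) was lower, and 1 of 5 lineage factors (Lef1, also on the naive list) was lower.

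The contrast moved with the clusters. Of cells with a gamma UMI 98.0% and 94.7% lay in the Cd40lg and Cxcr6 cluster, against 47.3% and 59.4% of those without, and the cells with gamma were deeper (medians of 4499 and 4396 against 3929 and 3699 UMIs). The 9 NK markers summed to 107 and 87.2 CPM in the Dapl1 and Ccr7 cluster, but to 1495 and 1258 CPM in the Cd40lg and Cxcr6 cluster. Within that cluster alone, a comparison added after the values were seen, 149 and 72 cells with gamma stood against 175 and 123 without, and 3 of 2325 genes were higher and 6 lower. Klf2, with ratios of 0.356 (0.271 to 0.465) and 0.256 (0.155 to 0.403), was then called, as 1 of 6 naive list genes measured. Ccr7, S1pr1 and Dapl1 fell under the minimum of UMIs there, and Ccr7 stood at 5.18 against 15.6 CPM in the female library and had no UMI against 27.7 CPM in the male one. Lef1 was measured and no longer lower, with ratios of 0.926 and 0.939. Gzma (0.483 and 0.0483) and Themis were also lower, and of 9 innate-like genes measured none was called. Ifng was no longer called, with 68.6 against 63.5 CPM in the female library, a ratio of 1.08 (0.719 to 1.63), and a male ratio of 3.08.

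**Figure D5:**
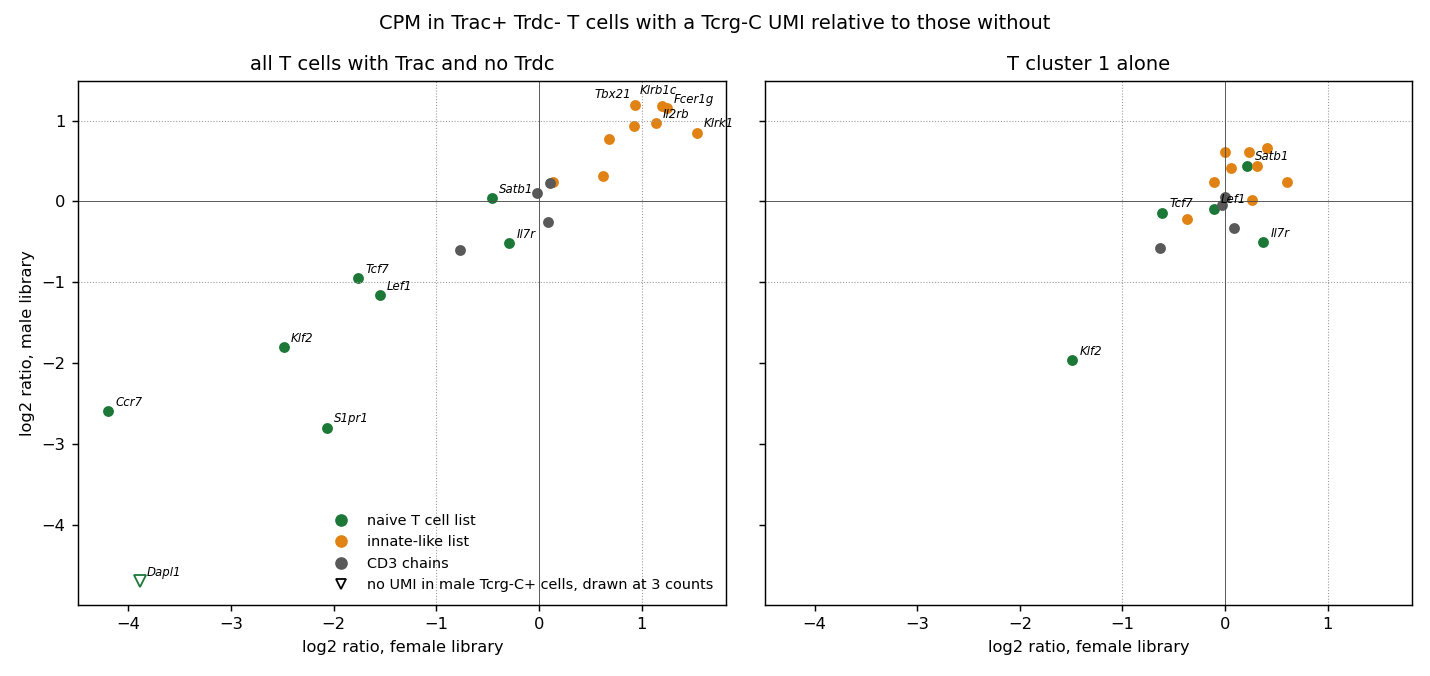
Log2 ratio of CPM in T cells with Trac and no Trdc that have a Tcrg-C UMI to those that have none, female library on the horizontal and male on the vertical axis, for list genes except 1 of the naive list; dotted lines mark a 2-fold change. Over all such T cells (left) 5 of the naive genes drawn fall below both lines, and within the Cd40lg and Cxcr6 cluster (right) Klf2 does, while Ccr7, S1pr1 and Dapl1 had too few UMIs there to be drawn.

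Female and male T cells had like levels of the constant genes. The female to male ratio in T cells was 0.989 (0.913 to 1.07) for Trac, 1.08 (1.01 to 1.16) for Trbc1, 0.957 (0.910 to 1.01) for Trbc2 and 0.825 (0.653 to 1.05) for Trdc. For Tcrg-C1, Tcrg-C2 and Tcrg-C4 it was 1.02, 0.923 and 0.933, with intervals that include 1. None of the 7 was 1.5-fold apart in these T cells, a size reached by 2.36% of the 3566 genes with at least 50 UMIs. Among gated T cells (357 and 190, without cells that have Klrb1c) the ratio was 0.473 for Trdc and 0.419 for Tcrg-C1, given without intervals. In NK cells Trac was 1.62-fold (1.21 to 2.19) higher in the female library. It was also higher there in the background classes, by 2.86-fold (1.45 to 6.18) in myeloid cells and with 11 against 0 UMIs in B cells. With 1 library per sex these ratios compare the libraries, and a difference between the sexes was not testable.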

How the data were processed

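Raw UMI counts were deposited by the authors as a gene by cell matrix per library, made from 3′ libraries of version 3.1 chemistry with Cell Ranger 4.0.0 and filtered with DropletUtils 1.4.3, with mm10 (GRCm38) in the submitters' processing notes; the annotation release is not given in the sources used here. Gene coordinates and sequences come from GENCODE vM21 (32158 of 32285 feature IDs matched).

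From these counts, cells with at least 200 genes and at most 15% mitochondrial UMIs were kept. The study states a ceiling of 1.2%. Applied to these percentages it leaves 327 female and 359 male cells, far fewer than the study states it kept, so the 1.2% alternative cannot be taken as the study's own filter. Scrublet's own cut marked 1 and 8 barcodes, so the highest doublet scores were removed at 0.8% per 1000 barcodes (123 and 53). Totals were 15045146 and 9035910 UMIs in kept cells. The libraries were normalised with sctransform 0.4.2, then integrated and clustered in Seurat 5.3.0 under R 4.3.3 (2000 features, 20 components, resolution 1), without receptor segment genes. The naming rule was revised once after the clusters were seen: Ccr7 was not held against T cells, clusters led by cell cycle genes stayed unnamed, and a mixed ILC and mast cell cluster was split at resolution 2. Unnamed clusters held 210 and 271 cells and endothelial clusters 45 and 49, and neither was compared.

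Levels are UMIs of a gene per 1e+06 UMIs of a class (CPM) with exact Poisson intervals, shares have Clopper-Pearson intervals, and ratios exact conditional binomial intervals (scipy 1.17.1, Python 3.11.15). With 1 library per sex no test was run. A value of 0 is bounded at 3 counts. PCR and capture errors are not covered. The 7 genes were given by name, lists were counted whole, and genes named are those past the fold in both libraries or with a stated role. Some genes on the lists are counted but not reported by name here. The members and lists were chosen with earlier results of these data known. Ratios of simulated counts were also checked. Alternatives were the mitochondrial ceiling, doublets, resolution, a marker gate for T cells, the depth of the draw, UMI minimums, a pseudocount and other subset markers.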

Additional observations from a re-analysis of the deposited data

Results flagged for a closer look

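Results are given here where exact counting intervals lay on opposite sides of 1 in the libraries or classes compared. The rule was set after the Trdc pattern in ILCs was known, 105 class ratios of the 7 genes were compared between the libraries and 35 female to male ratios between classes, and no difference between ratios was tested.

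The ILC to T cell ratio of Trdc was 0.264 (0.0846 to 0.626) in the female and 3.93 (2.85 to 5.39) in the male library, and the ILC to NK cell ratio was 0.217 (0.0701 to 0.512) and 3.33 (2.46 to 4.45). All 63 male UMIs lay in the 5 CD3 positive cells described above. The female to male ratio of Trdc was accordingly 0.0552 (0.0173 to 0.136) in ILCs, and 0.634 (0.491 to 0.819) in other T cells, but 5.07 (1.23 to 44.8) in CD8 T cells, where the male library had 2 UMIs, and 2.97 (1.14 to 9.77) in CD4 T cells, where it had 5. With Cd8a and Cd4 alone as markers, Trdc in CD4 T cells was at 11.7 against 6.64 CPM (4 and 1 UMIs). In CD8 T cells it was then at 47.1 against 6.95 CPM (38 and 3 UMIs).

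Trbc1 was higher in the female library in CD4 T cells (1.37; 1.2 to 1.57) and ILCs (1.69; 1.22 to 2.36) and lower in other T cells (0.882; 0.788 to 0.989). The direction in other T cells rested on the markers of the split. Trbc1 was higher there in the female library with Cd8a and Cd4 alone (866 against 835 CPM). The same held with Cd8b1 and Cd4 alone (889 against 833 CPM), but with Cd8a alone changed it stayed lower (727 against 862 CPM). Trbc2 was higher in the female library in CD4 T cells (1.1; 1.0 to 1.21) and lower in other T cells (0.867; 0.797 to 0.944) and NK cells (0.889; 0.818 to 0.967).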

How the results depend on the processing

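No paired analysis was possible because there is 1 library per sex and no test was run. A value is given as moved where it left the counting interval of the reported value, or changed by over 1.5 times for a count of genes. With Cd8a and Cd4 alone as subset markers, Trbc1 in other T cells turned direction (866 against 835 CPM), although its interval was off 1. Female to male ratios near 1 also turned, as for Trac under the gate below. Resolution 0.5 moved no value in this sense and resolution 2, with 664 and 370 T cells, moved 1, Trdc in female T cells, to 57.3 CPM, while a 5% mitochondrial ceiling raised the innate-like genes called in the gamma contrast to 4 and ignoring doublet calls lowered them to 1. The ceiling of 1.2% left 26 and 37 T cells, 12 and 6 NK cells and 18 and 17 ILCs (female and male). Trac in T cells was then 705 and 738 CPM, Trdc in NK cells 22.8 and 149 CPM and Tcrg-C1 in ILCs 269 and 474 CPM. Drawn shares in T cells were 100% and 97.1% for alpha beta and 8.33% and 8.57% for gamma delta chains, male NK cells had 0% Trdc and 16.7% Trbc, and 19.2% and 10.8% of T cells had both chain types. The delta contrast gave no value there (0 delta type cells), and the gamma contrast gave 0 genes higher, 1 lower, 0 naive and 0 innate-like. Trbv was at 60.0 and 13.4 CPM in T and 0 in NK cells, Trdv at 0 CPM in female T, 45.6 CPM in female NK and 0 in male NK cells, and 4.58% of genes were past 1.5-fold between the libraries.

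Taking T cells by a marker gate (at least 2 CD3 UMIs and none of 6 other markers) put Trac at 674 and 575 CPM, the gamma delta share at 9.04% and 15.3%, both chain types at 19.3% and 23.2%, Trac among cells with Trdc at 9.09% and 10.0%, and the female to male ratio at 1.17 for Trac and 0.473 for Trdc, with 4.15% of genes past 1.5-fold. The delta contrast then had 11 genes higher, 0 naive and 1 innate-like, and the gamma contrast 18 lower and 1 innate-like. The gate leaves out T cells with Klrb1c, so Klrb1c, 1 of the innate-like genes, could not be called there.

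Shares move with depth by construction. A draw of 500 UMIs gave 75.5% and 75.1% alpha beta and 8.84% and 10.99% gamma delta in T cells, 3.81% and 4.58% Trdc and 31.7% and 34.2% Trbc in NK cells and 14.3% Tcrg-C1 in male ILCs. Without a draw these were 98.1% and 98.7%, 30.3% and 28.2%, 24.2% and 25.6%, 84.0% and 88.1%, and 35.8% and 45.7% Tcrg-C1 in ILCs. After the draw of 1000, both chain types were found in 15.8% and 16.3% of T cells and Trac in 8.70% of female cells with Trdc. With at least 2 UMIs of a chain, both types were found in 19.4% and 21.4%, and Trac in 13.8% and 0% of cells with Trdc.

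Counts of genes depend on the UMI minimum. At 20 UMIs the delta contrast had 104 higher and 206 lower and the gamma contrast 51 and 68, and with no minimum 396 and 2846, and 404 and 777. Adding 10 CPM gave 16 and 22 for delta and 12 higher for gamma. At least 3 Trdc UMIs gave 61 lower and 2 innate-like. The gamma contrast at 2000 UMIs per cell gave 5 higher and 12 lower, and within the Cd40lg and Cxcr6 cluster 3 and 6, with 1 naive and 0 innate-like. A minimum of 2 gamma delta UMIs on the groups first set out was not run, since they held too few cells. Past 1.5-fold between libraries were 6.38% of genes at 20 UMIs and 25.8% with no minimum. Leaving out NK cells with a CD3 UMI put Trdc at 69.3 and 69.8 CPM and female Trbc at 46.2%.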

Other observations

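A cluster led by cell cycle genes, left unnamed, held 28 female and 10 male cells. It had 609 and 528 CPM of Trac and 1816 and 1959 CPM of the CD3 chains. Tcrg-C2 stood at 107 CPM (39 UMIs) in the female and 406 CPM (53 UMIs) in the male cells, while Tcrg-C1 had 9 and 1 UMIs. Tcrg-C4 was at 38.4 and 153 CPM and Trdc at 101.5 and 15.3 CPM.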
